A study of Mus musculus with 8 samples.

Results

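Slc7a1, Slc7a2, Slc7a3, Slc7a5, Slc7a6, Slc3a2, Slc1a4, Slc1a5, Slc38a1 and Slc38a2 encode carriers of neutral and cationic amino acids, or in the case of Slc3a2 a subunit of such carriers. These 10 genes were taken from a list of names, with every probe set that the platform annotation gave to one of them, which made 22 probe sets of 45101 on the array and 10 of 18194 genes with a probe set of their own. The samples were total RNA labelled as mouse cerebral cortex, and the title of the series speaks of astroglial genes driven by FGF2, fibroblast growth factor-2, which makes astrocytes and neural progenitors divide. There were 4 groups of 2 samples, with 1 Affymetrix array per sample: FGF2 with U0126, an inhibitor of the MEK kinases that activate ERK; FGF2 with SB202190, an inhibitor of p38 kinases; FGF2 alone; and vehicle. All groups but vehicle received FGF2. The sources used here do not give the strain, the age, the doses or the times, nor do they tell cultured cells from tissue. Nothing says that the 2 samples of a group were independent cultures or mice, so a p-value here covers the spread among the samples at hand, part or all of which may be technical. Replicate 2 of FGF2 with SB202190 carries acclimatization as its treatment type, where the other 7 samples carry wait, with the same growth factor and kind of inhibitor as replicate 1.

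Amino acid carriers of the plasma membrane fall into a few functional kinds. The cationic carriers Slc7a1, Slc7a2 and Slc7a3 admit arginine, lysine and ornithine. The light chains Slc7a5 and Slc7a6 are exchangers that reach the membrane only when joined to the heavy chain Slc3a2, also known as CD98 or 4F2hc. Slc7a5 takes up leucine and other large neutral amino acids, many of them essential, and its activity feeds the leucine signal to mTORC1. Slc1a4 and Slc1a5 exchange small neutral amino acids such as serine, alanine and, for Slc1a5, glutamine. Slc38a1 and Slc38a2 take up glutamine and alanine together with sodium, and Slc38a2 is known to be induced when amino acids run short. In brain, astrocytes make glutamine and serine, and carriers of these families move both between astrocytes and neurons.

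Start regions from RefSeq (GRCm38.p6), 250 bases before to 50 after the start of a gene, were found for 5 of the 10 genes, in 7 windows, because Slc7a1 and Slc7a6 have a pair each. The windows were searched on both strands for TGATGNAA, the composite element of ATF4 and C/EBP factors that marks many genes of the amino acid response, for CACGTG, the E-box bound by MYC, for TGANTCA, the AP-1 site, and for CCGGAA, a core of ETS sites. TGATGNAA was found in 1 of the 7 windows, against 3.97% of all 32851 windows of this length. TGANTCA was found in 1 (7.81% of all windows), CCGGAA in 3 (14.9%), of which the overlapping windows of Slc7a6 share 1 site, and CACGTG in 0 (7.15%). The 3 regions below are shown because the results place these genes apart: Slc1a4 and Slc7a1 were higher with FGF2 than with vehicle, and Slc38a2 was lower. Capitals mark a match, TTGCATCA in Slc1a4, which is TGATGNAA read on the other strand and spans bases -4 to 4 around the start, and TGACTCA in Slc7a1 at bases -123 to -117. Slc38a2 holds none of these letters in its window, which says nothing about sites elsewhere, and a match is a description and not evidence of binding. All lie on the minus strand, at chr11:20332710-20332963, chr5:148399905-148400154 and chr15:96699729-96699978, and each is printed in the direction of its gene.
Slc1a4: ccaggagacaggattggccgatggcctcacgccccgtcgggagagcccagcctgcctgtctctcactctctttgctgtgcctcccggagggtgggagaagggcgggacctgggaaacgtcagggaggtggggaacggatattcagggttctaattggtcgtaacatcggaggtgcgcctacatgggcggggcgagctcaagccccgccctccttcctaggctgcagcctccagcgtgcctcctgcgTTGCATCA
Slc7a1: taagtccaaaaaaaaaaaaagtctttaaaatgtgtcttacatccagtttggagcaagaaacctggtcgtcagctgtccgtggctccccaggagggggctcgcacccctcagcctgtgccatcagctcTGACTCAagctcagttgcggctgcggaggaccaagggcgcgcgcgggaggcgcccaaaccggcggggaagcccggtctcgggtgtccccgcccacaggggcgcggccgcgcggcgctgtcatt
Slc38a2: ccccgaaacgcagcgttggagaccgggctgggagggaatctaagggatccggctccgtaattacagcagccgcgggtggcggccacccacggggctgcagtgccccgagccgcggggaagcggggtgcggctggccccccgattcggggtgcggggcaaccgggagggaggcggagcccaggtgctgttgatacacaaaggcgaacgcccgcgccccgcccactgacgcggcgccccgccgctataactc

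Every array had been scaled to a common mean signal, and median signals per array lay between 22.3 and 27.8. Over the 13173 genes tested, replicates had correlations of 0.980 to 0.984 and arrays of different groups 0.947 to 0.981. All 10 astrocyte markers were above the filter on low signals, among them the gap junction protein Gja1, with 2941 and 2642 with FGF2 and U0126, 2177 and 2135 with FGF2 and SB202190, 2123 and 2146 with FGF2, and 4574 and 4709 with vehicle. Their summed signal was 16864 and 16569 with FGF2 and U0126, 13290 and 13106 with FGF2 and SB202190, 13542 and 13424 with FGF2, and 25213 and 24965 with vehicle. Markers of meningeal fibroblasts and pericytes were also present (9 of 12 above the filter, sums of 11917 to 20609 over the 8 arrays), as were ependymal and choroid plexus genes (8 of 10, 3723 to 6932). Neuronal markers were above the filter in 6 of 12 cases (sums of 1924 to 2695), oligodendrocyte precursor markers in 6 of 7 (2200.4 to 4438) and oligodendrocyte markers in 4 of 9 (1692 to 2788), of which Mog, Mag, Mobp, Ermn and Opalin were not. Of the endothelial markers 6 of 12 passed (1422 to 3416), but Pecam1, Cldn5, Tie1 and Tek did not, Pecam1 lying between 0.605 and 1.56. Of the microglial markers 3 of 10 passed (246 to 404), with Ptprc between 0.750 and 4.24.

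All 10 transporter genes passed the filter, and each is described by the probe set whose mean signal was highest. Signals are linear intensities, given for replicate 1 and then replicate 2 of a group. Levels of different genes are not set against each other, because probes differ in brightness. A change is a difference of quantile-normalized log2(signal + 1.77) ± SE, with n = 2 arrays in each group, and a gene was called when limma's p, adjusted over all 13173 genes of the comparison, was under 0.05.

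**Figure D1:**
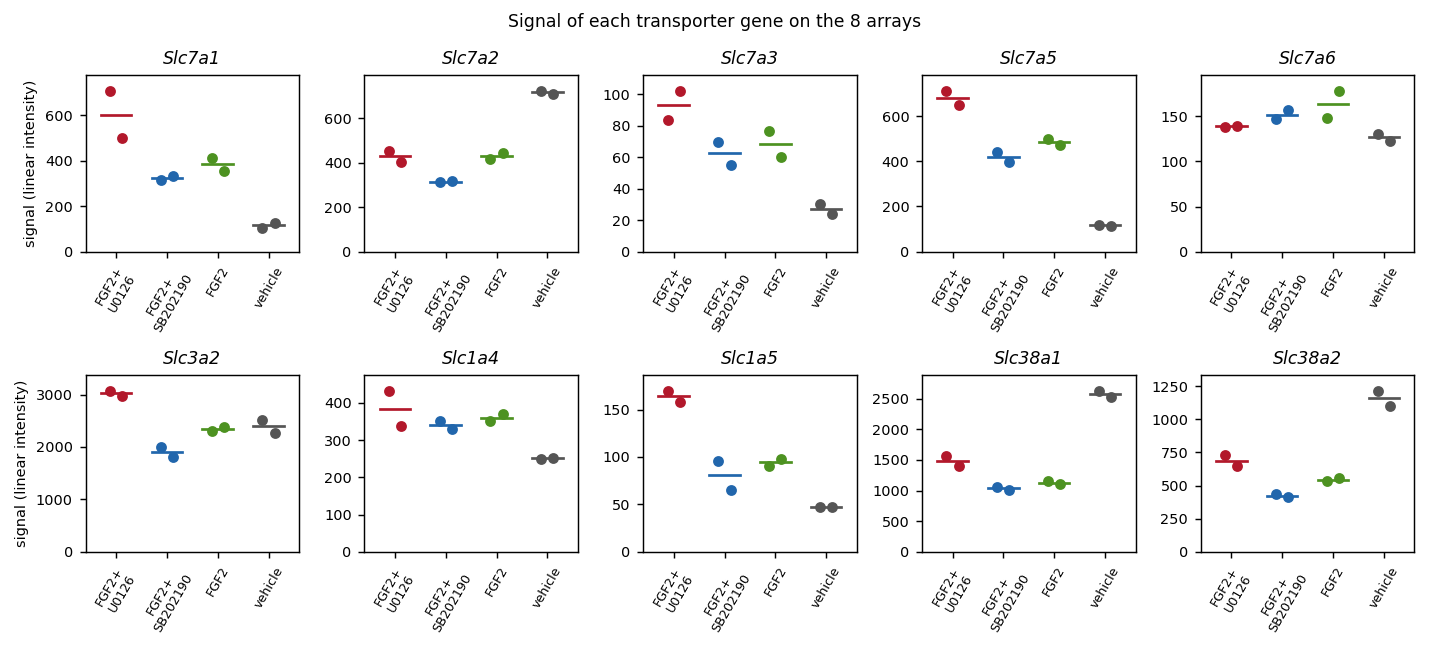
Signal of the 10 transporter genes (linear intensity, one panel per gene, each with its own axis from 0) on the arrays of FGF2 with U0126, FGF2 with SB202190, FGF2 and vehicle; points are arrays and lines the mean of 2. Slc7a5 had 714 and 649.5 with FGF2 and U0126, 499.8 and 473 with FGF2, and 119 and 116 with vehicle, while Slc38a1 was highest on the vehicle arrays, at 2626 and 2523.

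The comparison of FGF2 with vehicle shows how the growth factor moved the transporter genes. FGF2 raised 6 of the 10 and lowered 3. The light chain Slc7a5, the cationic carriers Slc7a1 and Slc7a3 and the exchanger Slc1a5 were 2.12-fold to 4.19-fold higher, while the sodium-coupled glutamine carriers Slc38a1 and Slc38a2 stood at 0.426 and 0.463 of vehicle. The heavy chain Slc3a2 was not called. Over all 13173 genes 18.9% were called higher and 19.0% lower, and the median change was -0.004, against 0.46 for the 10 transporters.

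Among the light chains, Slc7a5 had signals of 499.8 and 473 with FGF2, against 119 and 116 with vehicle. The groups were far apart and their replicates close, for a log2 change of 2.07 ± 0.09 (adjusted p = 3.61e-09), a 4.19-fold difference. Slc7a6, which exchanges cationic for neutral amino acids, had 148 and 179 with FGF2, against 131 and 123 with vehicle. Here the groups lay close together without overlap, and the change was 0.39 ± 0.13 (adjusted p = 0.0310). Where an array is left out, here and below, its group keeps 1 array, which is assumed to vary like those of the other groups. That call was lost without FGF2 replicate 2 (0.26, adjusted p = 0.258) and without vehicle replicate 1 or 2 (0.43 and 0.36, adjusted p = 0.0676 and 0.117), and when the fit held only the 4 arrays of this comparison (adjusted p = 0.0502). The heavy chain that both light chains need, Slc3a2, had 2313 and 2372 with FGF2, against 2519 and 2273 with vehicle. Its groups overlapped, and the change was -0.11 ± 0.07 with a 95% interval of -0.25 to 0.03 (adjusted p = 0.212). With arrays centred on their medians it was 0.17, so its sign depends on the scaling.

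The cationic carriers did not move together. Slc7a1, the widely expressed member, had 412 and 356 with FGF2, against 105 and 127 with vehicle, a change of 1.75 ± 0.15 (adjusted p = 1.26e-06). Slc7a3, known mainly from neural tissue, had 76.5 and 60.3 with FGF2, against 30.2 and 24.1 with vehicle, a change of 1.45 ± 0.23 (adjusted p = 2.20e-04). Both FGF2 arrays lay well above both vehicle arrays for each of these genes. Slc7a2, whose product serves arginine uptake in cells such as macrophages, had 415 and 444 with FGF2, against 725 and 710.1 with vehicle. It was thus lower on both FGF2 arrays, with a change of -0.77 ± 0.09 (adjusted p = 1.02e-05).

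Both exchangers of small neutral amino acids were higher with FGF2. Slc1a5, a glutamine exchanger often abundant in proliferating cells, had 90.8 and 98.0 with FGF2, against 47.6 and 47.6 with vehicle, a change of 1.09 ± 0.19 (adjusted p = 4.80e-04). Its second probe set, 1440379_at, did not pass the filter and lay between 1.05 and 14.2 on the 8 arrays. When both were averaged the change turned to -0.23 (adjusted p = 0.705), so the call rests on the brighter probe set. Slc1a4, a serine and alanine exchanger, had 351 and 369 with FGF2, against 249.5 and 253 with vehicle, a change of 0.52 ± 0.11 (adjusted p = 0.00226). The sodium-coupled pair went the other way. Slc38a1 had 1156 and 1108 with FGF2, against 2626 and 2523 with vehicle, a change of -1.23 ± 0.07 (adjusted p = 2.48e-08). Slc38a2 had 534 and 558 with FGF2, against 1214 and 1102 with vehicle, a change of -1.11 ± 0.09 (adjusted p = 3.73e-07). Neither overlapped between groups, and both genes lie on chromosome 15.

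The astrocyte markers were lower with FGF2 as well, 10 of 10 by the same test with a median change of -0.80, as were 7 of 9 tested fibroblast and pericyte markers (median -0.73) and 7 of 8 ependymal and choroid plexus markers (median -1.36). Of the endothelial markers 3 of 6 were lower and 0 higher, and of the oligodendrocyte markers 3 of 4 and 0. Other lists held genes that were higher with FGF2. Of 6 oligodendrocyte precursor markers 2 were higher and 1 lower, and their summed signal was 4315 and 4438 with FGF2, against 2214 and 2200.4 with vehicle. Most of that sum came from Olig1, at 3166 and 3257 with FGF2, against 1626 and 1641 with vehicle. Olig2 gave 874 and 941 with FGF2, against 239 and 259 with vehicle. Pdgfra had 149 and 136 with FGF2, against 141 and 120 with vehicle, and Sox10 and Matn4 were lower on both FGF2 arrays than on both vehicle arrays. Of 6 neuronal markers 3 were higher and 1 lower, with sums of 2433 and 2553 with FGF2, against 2319 and 2346 with vehicle, most of which came from Stmn2. Of 3 microglial markers limma called 0 (2 at an unadjusted p under 0.05, where 6021 of all 13173 genes were). Fewer cells of a type and less RNA per cell cannot be told apart in such samples, and the part of cell makeup in the changes of the transporters, higher or lower, was not tested.

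**Figure D2:**
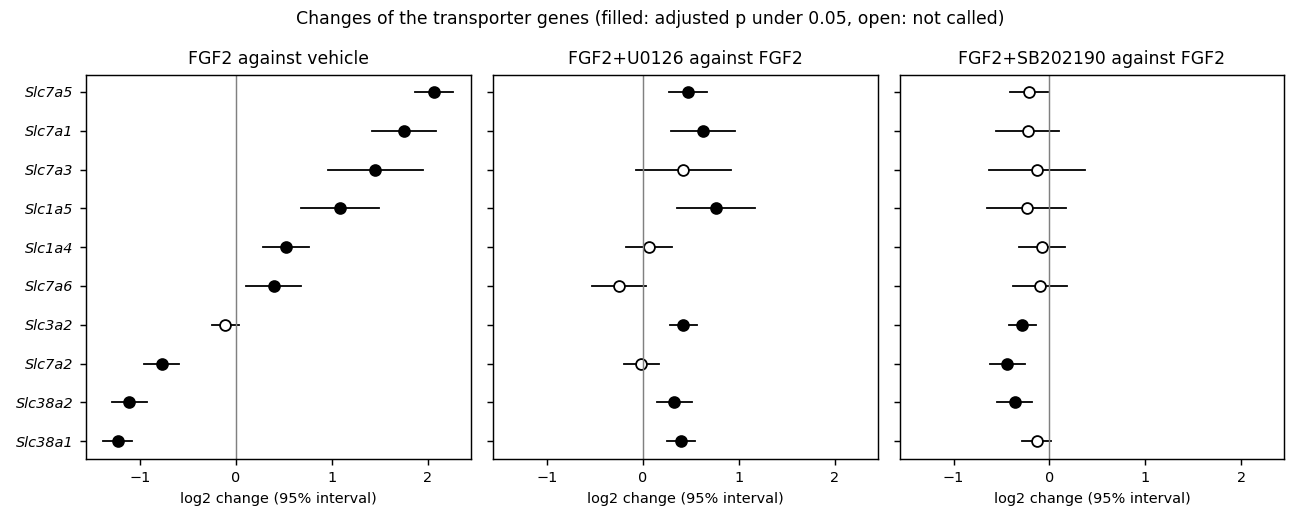
Log2 change of each transporter gene (x axis, log2 scale, with 95% intervals) in FGF2 against vehicle, FGF2 with U0126 against FGF2, and FGF2 with SB202190 against FGF2; filled points passed an adjusted p of 0.05. FGF2 against vehicle runs between 2.07 for Slc7a5 and -1.23 for Slc38a1, the 6 called changes with U0126 are all above 0, and the 3 called changes with SB202190 are all below 0.

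FGF2 with U0126 was compared with FGF2 alone, which gives the change with a MEK inhibitor while FGF2 was present. No group received an inhibitor without FGF2, so an inhibitor's own effect cannot be told apart from one on the FGF2 response. With U0126, 6 of the 10 genes were higher than with FGF2 alone and 0 were lower, where 11.7% of all genes tested were called higher and 10.5% lower. The median change of the 10 was 0.41, against 0.03 for all genes. The 6 comprised 3 genes that FGF2 had raised (Slc7a5, Slc7a1 and Slc1a5), both that it had lowered of the sodium-coupled kind (Slc38a1 and Slc38a2), and Slc3a2, which it had not changed by the test. These changes and those of FGF2 against vehicle use the same FGF2 arrays.

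Slc7a5 had 714 and 649.5 with FGF2 and U0126, against 499.8 and 473 with FGF2, a change of 0.47 ± 0.09 (adjusted p = 0.00252). Its partner Slc3a2 had 3069 and 2972 with FGF2 and U0126, against 2313 and 2372 with FGF2, a change of 0.42 ± 0.07 (adjusted p = 4.98e-04). Heavy and light chain were thus both highest on the arrays with U0126 among all 8. Slc7a6 had 139 and 139 with FGF2 and U0126, against 148 and 179 with FGF2, a change of -0.25 ± 0.13 that was not called (adjusted p = 0.211, interval -0.53 to 0.04).

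Slc7a1 had 709 and 499 with FGF2 and U0126, against 412 and 356 with FGF2, a change of 0.63 ± 0.15 (adjusted p = 0.00973). The replicates with U0126 were far apart, and the call was lost without FGF2 with U0126 replicate 1 (0.37, adjusted p = 0.119) or FGF2 replicate 2 (0.53, adjusted p = 0.0949). Slc1a5 had 170 and 158 with FGF2 and U0126, against 90.8 and 98.0 with FGF2, a change of 0.76 ± 0.19 (adjusted p = 0.0108). It was the largest change of the 10 in this comparison, and the call was lost without FGF2 with U0126 replicate 1 or FGF2 replicate 1 (0.72 and 0.70, adjusted p = 0.0719 and 0.0739). Slc7a3 had 83.7 and 102 with FGF2 and U0126, against 76.5 and 60.3 with FGF2, a change of 0.42 ± 0.23 that did not pass (adjusted p = 0.219, interval -0.07 to 0.92).

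Slc38a1 had 1571 and 1404 with FGF2 and U0126, against 1156 and 1108 with FGF2, a change of 0.40 ± 0.07 (adjusted p = 0.00107). Slc38a2 had 727 and 648 with FGF2 and U0126, against 534 and 558 with FGF2, a change of 0.33 ± 0.09 (adjusted p = 0.0138). The arrays with U0126 lay between those of FGF2 and those of vehicle for both genes, nearer to FGF2. The Slc38a2 call was lost without FGF2 with U0126 replicate 1 (0.23) or FGF2 replicate 1 (0.29), and without limma's intensity trend (adjusted p = 0.0947). Averaged over its probe sets the change of Slc38a2 was -0.08 (adjusted p = 0.795). Slc1a4 and Slc7a2 had 0.07 ± 0.11 and -0.01 ± 0.09 (adjusted p = 0.720 and 0.933), and their groups overlapped.

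Other marker lists differed between these groups too. Of 10 astrocyte markers 7 were higher with U0126 and 0 lower, and of 8 ependymal and choroid plexus markers 5 were higher and 0 lower. In the other direction 3 of 6 neuronal markers, 2 of 6 oligodendrocyte precursor markers and 1 of 4 oligodendrocyte markers were lower and 0 higher. Of 9 fibroblast and pericyte markers and of 6 endothelial markers 2 were higher and 2 lower each, and of 3 microglial markers 1 was higher. The summed endothelial markers were 2790 and 2646 with FGF2 and U0126, against 1595 and 1623 with FGF2, and most of that sum came from Slc2a1, the glucose carrier, at 1513 and 1469 with FGF2 and U0126, against 669 and 622 with FGF2, and from Slco1a4, an organic anion carrier. The part of all these markers in the changes of the transporters was not tested.

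FGF2 with SB202190 was compared with FGF2 alone in the same way and with the same limit. Here 3 of the 10 were lower than with FGF2 alone and 0 higher, where 1.73% of all genes tested were called lower and 1.34% higher. At an unadjusted p under 0.05 there were 4, all lower, the fourth being Slc7a5. Over all 13173 genes 2244 were under that p, 1176 of them lower. The median change of the 10 was -0.22, against -0.005 for all genes. Among the marker lists 2 of 10 astrocyte, 2 of 8 ependymal and choroid plexus, 2 of 6 endothelial and 1 of 6 oligodendrocyte precursor markers were lower and 0 higher, and their part in the changes of the transporters was not tested.

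Slc7a2 had 312 and 316 with FGF2 and SB202190, against 415 and 444 with FGF2, a change of -0.44 ± 0.09 (adjusted p = 0.0145). Slc38a2 had 435 and 410.4 with FGF2 and SB202190, against 534 and 558 with FGF2, a change of -0.36 ± 0.09 (adjusted p = 0.0371). Slc3a2 had 2002 and 1813 with FGF2 and SB202190, against 2313 and 2372 with FGF2, a change of -0.28 ± 0.07 (adjusted p = 0.0353). None of these 3 genes overlapped between the groups, but neither did Slc7a1, Slc7a5 and Slc38a1, which were not called. The share of all genes without overlap was not counted. With FGF2 replicate 1, FGF2 replicate 2 or FGF2 with SB202190 replicate 2 left out, limma called 0 of the 10 (adjusted p = 0.0675 to 0.275 for these 3), and without FGF2 with SB202190 replicate 1 it called Slc3a2 alone. The changes that lost a call in this way lay between -0.49 and -0.39 for Slc7a2, -0.40 and -0.33 for Slc38a2, and -0.29 and -0.21 for Slc3a2. Without the intensity trend limma called 0 of 13173 genes (1818 at an unadjusted p under 0.05).

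Slc7a5 had 442 and 397 with FGF2 and SB202190, against 499.8 and 473 with FGF2, a change of -0.21 ± 0.09 with an interval of -0.41 to -0.01 (adjusted p = 0.256). The other genes that FGF2 had raised, Slc7a1, Slc7a3, Slc1a5, Slc1a4 and Slc7a6, had changes of -0.23, -0.13, -0.24, -0.08 and -0.10, and Slc38a1 had -0.13, none of them called. These intervals are wide: that of Slc1a5 ran between -0.65 and 0.17, and that of Slc7a3 between -0.63 and 0.37.

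The inhibitor groups were also compared with vehicle, with which FGF2 alone shares the vehicle arrays. With FGF2 and U0126 6 genes were higher than with vehicle and 3 lower, where 16.7% and 15.1% of all genes were. Slc7a5 had a change of 2.54 ± 0.09, a 5.82-fold difference, Slc7a1 of 2.38 ± 0.15, Slc7a3 of 1.88 ± 0.23 and Slc1a5 of 1.85 ± 0.19, while Slc38a1, Slc7a2 and Slc38a2 had -0.83 ± 0.07, -0.79 ± 0.09 and -0.78 ± 0.09. Slc3a2 was called higher in this comparison, at 0.31 ± 0.07 (adjusted p = 0.00245), a call that was lost without the intensity trend (adjusted p = 0.0632). Averaged over its probe sets Slc1a5 had 0.73 (adjusted p = 0.201) with FGF2 and U0126 against vehicle, and -0.01 (adjusted p = 0.983) with FGF2 and SB202190 against vehicle. With FGF2 and SB202190 5 genes were higher than with vehicle and 4 lower, where 18.1% and 17.9% of all genes were. Slc7a5 had 1.85 ± 0.09 and Slc7a1 1.52 ± 0.15, against -1.47 ± 0.09 for Slc38a2, -1.36 ± 0.07 for Slc38a1 and -1.21 ± 0.09 for Slc7a2. Slc3a2 was called lower, at -0.40 ± 0.07 (adjusted p = 3.46e-04), a call that was lost with arrays centred on their medians (-0.12, adjusted p = 0.284). Without FGF2 with SB202190 replicate 1 the calls of Slc1a5 and Slc1a4 were lost as well (0.57 and 0.40, adjusted p = 0.0513 and 0.0540), and that of Slc1a4 without the intensity trend (adjusted p = 0.0516). The probe set that represents Slc7a6 was called in neither comparison, at 0.15 ± 0.13 with FGF2 and U0126 and 0.29 ± 0.13 with FGF2 and SB202190. Averaged over its probe sets Slc7a6 was called higher in both, at 0.36 and 0.45 (adjusted p = 0.0427 and 0.0126), and with arrays centred on their medians it was called with SB202190, at 0.47 (adjusted p = 0.0137).

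Between the inhibitors, 7 of the 10 genes were higher with U0126 than with SB202190 and 0 lower, where 12.4% of all genes were called higher and 10.3% lower. With doses and times unknown, the values stand for these samples alone. The largest change was that of Slc1a5, with 170 and 158 with FGF2 and U0126, against 96.2 and 65.7 with FGF2 and SB202190, a change of 1.00 ± 0.19 (adjusted p = 0.00187). Slc7a1 had 0.86 ± 0.15, Slc3a2 0.71 ± 0.07, Slc7a5 and Slc38a2 0.69 ± 0.09 each, Slc38a1 0.53 ± 0.07 and Slc7a2 0.43 ± 0.09. Averaged over the probe sets of a gene, 4 of these 7 calls were lost, those of Slc1a5 at 0.75, Slc7a1 at 0.68, Slc38a2 at 0.17 and Slc7a2 at 0.05 (adjusted p = 0.232, 0.194, 0.569 and 0.887). For Slc3a2 the heavy chain had 3069 and 2972 with FGF2 and U0126, against 2002 and 1813 with FGF2 and SB202190, with FGF2 alone and vehicle in between. Slc7a3 had 0.55 ± 0.23 (adjusted p = 0.105), and Slc1a4 and Slc7a6 had 0.15 ± 0.11 and -0.15 ± 0.13.

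The other probe sets of the same genes mostly moved with the one that represents the gene. Of 22 probe sets 20 passed the filter, and when every probe set was tested on its own, 17 of these 20 were called between FGF2 and vehicle, 10 higher and 7 lower, where 30.5% of all 27060 probe sets tested were called in either direction. No gene had probe sets called in opposite directions in that comparison. The second probe set of Slc7a1, 1454992_at, had 156 and 179 with FGF2, against 54.2 and 60.7 with vehicle, a change of 1.61 ± 0.15, and 0.78 ± 0.15 with U0126 against FGF2. For Slc1a4 the 3 probe sets had 0.52, 0.60 and 0.86 with FGF2 against vehicle, for Slc7a6 both had 0.39 and 0.72, and for Slc38a1 -1.23 and -1.35.

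Probe sets of Slc7a2, Slc38a2, Slc7a6 and Slc1a4 differed in calls of the inhibitor comparisons. For Slc7a2 the bright probe set 1436555_at had -0.01 ± 0.09 with U0126 against FGF2, but 1426008_a_at, with 65.6 and 41.6 with FGF2 and U0126, against 96.6 and 98.1 with FGF2, was called lower at -0.86 ± 0.20 (adjusted p = 0.0125). Between U0126 and SB202190 the bright probe set of Slc7a2 was called higher at 0.43, while the other 3 had -0.15, -0.30 and 0.24 and were not called. With SB202190 against FGF2 the bright probe set of Slc7a2 was called lower at -0.44. The other 3 had -0.35, -0.56 and -0.38 there and were not called. For Slc38a2 the bright probe set had 0.33 with U0126 against FGF2, and 1429593_at had -0.12 ± 0.17 (adjusted p = 0.704), with 80.2 and 72.0 with FGF2 and U0126, against 74.5 and 91.0 with FGF2. Its dim probe set 1429594_at had signals of 6.61 to 27.0 and was called in none of these. The second probe set of Slc7a6, 1460541_at, was called higher against vehicle with FGF2 and U0126 (0.57 ± 0.15, adjusted p = 0.0155) and with FGF2 and SB202190 (0.61 ± 0.15, adjusted p = 0.00849). For Slc1a4 1423549_at was not called with FGF2 and SB202190 against vehicle, at 0.37 ± 0.13 (adjusted p = 0.0541), where its other 2 probe sets were. The cause of these differences was not tested. In the same fit over all probe sets the SB202190 changes of Slc3a2 and Slc38a2 against FGF2 had adjusted p = 0.0519 and 0.0552.

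**Figure D3:**
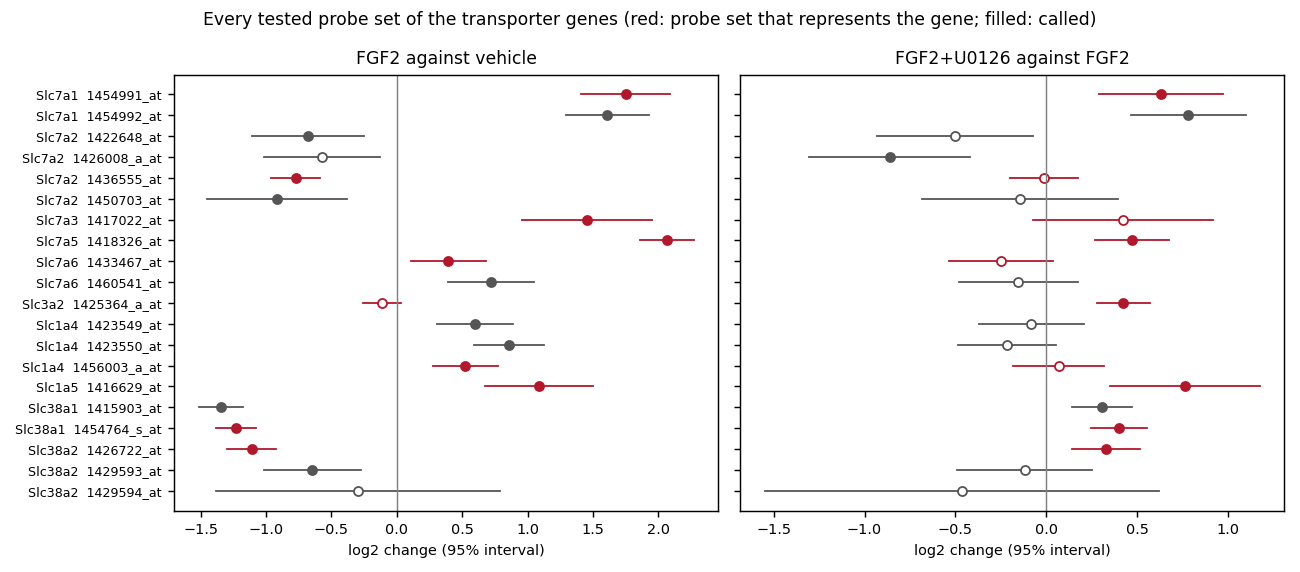
Log2 change (x axis, with 95% intervals) of the 20 probe sets that passed the filter, in FGF2 against vehicle and in FGF2 with U0126 against FGF2; red marks the probe set that represents its gene, grey the others, and filled points were called. Probe sets of one gene lie on the same side of 0 in the left panel, while in the right panel Slc7a2 1426008_a_at stands at -0.86 and Slc7a2 1436555_at at -0.01.

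The other genes of amino acid handling were counted in the same fits. Over all genes tested 18.9% were called higher and 19.0% lower with FGF2 against vehicle. With U0126 against FGF2 11.7% and 10.5% were, and with SB202190 against FGF2 1.34% and 1.73%. These shares belong beside the counts of every list below. Of 26 other amino acid transporters that were tested, 4 were higher with FGF2 than with vehicle and 6 lower, with a median of -0.20. Slc6a9, a glycine carrier of astrocytes, had 296 and 246 with FGF2, against 131 and 147 with vehicle, a change of 0.98 ± 0.13. Slc6a15, a carrier of branched-chain amino acids and proline in brain, had 65.2 and 69.3 with FGF2, against 241 and 223 with vehicle, a change of -1.72 ± 0.15, and the glutamate carrier Slc1a2 had -0.83 ± 0.10. With U0126 against FGF2 5 of these 26 were higher and 3 lower. Slc7a11, the cystine carrier that also pairs with Slc3a2, had 341 and 278 with FGF2 and U0126, against 147 and 137 with FGF2, a change of 1.08 ± 0.13, and Slc38a3, a glutamine carrier of astrocytes, had 0.61 ± 0.09. The taurine carrier Slc6a6 was lower with either inhibitor, at -1.27 ± 0.10 with U0126 and -1.04 ± 0.10 with SB202190, both against the same FGF2 arrays. With SB202190 1 of the 26 was higher, Slc7a11 at 0.66 ± 0.13, and 2 were lower, Slc6a6 and Slc38a3 at -0.59 ± 0.09.

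ATF4 is a transcription factor that switches on genes of amino acid synthesis and import when amino acids are scarce, among them Slc7a5, Slc7a11 and Slc3a2. Of 26 tested genes of this response, 12 were higher with FGF2 than with vehicle and 3 lower, with a median of 0.18. Asns, which makes asparagine, had 2016 and 1854 with FGF2, against 397 and 360.3 with vehicle, a change of 2.32 ± 0.09, and Psph, the last enzyme of serine synthesis, had 1.75 ± 0.07. With U0126 against FGF2 14 of the 26 were higher and 0 lower, with a median of 0.43. At an unadjusted p under 0.05 19 were higher and 4 lower, where 2396 and 2053 of all 13173 genes were. Ddit3, a transcription factor of cell stress, had 683 and 599 with FGF2 and U0126, against 235 and 277 with FGF2, a change of 1.30 ± 0.11, and Cth, which makes cysteine, had 1.56 ± 0.17. With SB202190 1 was higher and 1 lower, Ddit3 at 0.46 ± 0.11 and the stress gene Nupr1 at -1.51 ± 0.09.

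Aminoacyl-tRNA synthetases load amino acids onto tRNA. Their list also held genes that are not synthetases, among them Eef1e1. Of the 22 tested genes of this list 20 were higher with FGF2 than with vehicle and 0 lower, with a median of 0.65. Nars, for asparagine, had 2827 and 2659.9 with FGF2, against 1411 and 1452 with vehicle, a change of 0.89 ± 0.07. With U0126 against FGF2 6 were higher and 1 lower, with a median of 0.12. Aars, for alanine, had a change of 0.80 ± 0.10, while Hars, for histidine, had -0.52 ± 0.05. With SB202190 limma called 0 of the 22 (8 at an unadjusted p under 0.05, all lower, where 1176 of all 13173 genes were lower).

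Of 32 tested genes of mTORC1 amino acid sensing 5 were higher and 8 lower with FGF2 against vehicle, where 18.9% and 19.0% of all genes were, and 8 higher and 5 lower with U0126 against FGF2, where 11.7% and 10.5% of all genes were. The medians were 0.04 and 0.05. Rragd, a Rag GTPase that carries the amino acid signal to mTORC1, had 603 and 583 with FGF2, against 928 and 947 with vehicle, a change of -0.69 ± 0.07, and 0.65 ± 0.07 with U0126 against FGF2. Sesn1 and Sesn3, of the sestrin family that restrains mTORC1, had -0.47 ± 0.08 and -0.48 ± 0.08 with FGF2 against vehicle, and -0.59 ± 0.08 and -0.53 ± 0.08 with U0126 against FGF2. With SB202190 limma called 0 of the 32 (6 at an unadjusted p under 0.05). Another list was drawn up around the use of imported arginine, ornithine, glutamine or branched-chain amino acids. It also held Glul, which makes glutamine, and the polyamine genes Sat1 and Oaz1. Of its 18 tested genes 4 were higher and 4 lower with FGF2 against vehicle. With U0126 against FGF2 4 and 1 were, and with SB202190 against FGF2 1 and 0. Srm, which makes spermidine, had 1.13 ± 0.09 with FGF2 against vehicle. Sat1, Oat and Glul were lower there, at -0.88 ± 0.08, -0.79 ± 0.07 and -0.78 ± 0.07. With U0126 against FGF2 Odc1, the first enzyme of polyamine synthesis from ornithine, had 0.49 ± 0.06, and Oaz1 had -0.26 ± 0.06. Of 8 tested genes of the MYC network 0 were higher and 3 lower with FGF2 against vehicle, the MYC antagonists Mxi1 at -1.11 ± 0.11, Mxd1 at -1.05 ± 0.29 and Mxd4 at -0.39 ± 0.09, then 0 and 2 with U0126 against FGF2, and limma called 0 with SB202190 (0 at an unadjusted p under 0.05).

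**Figure D4:**
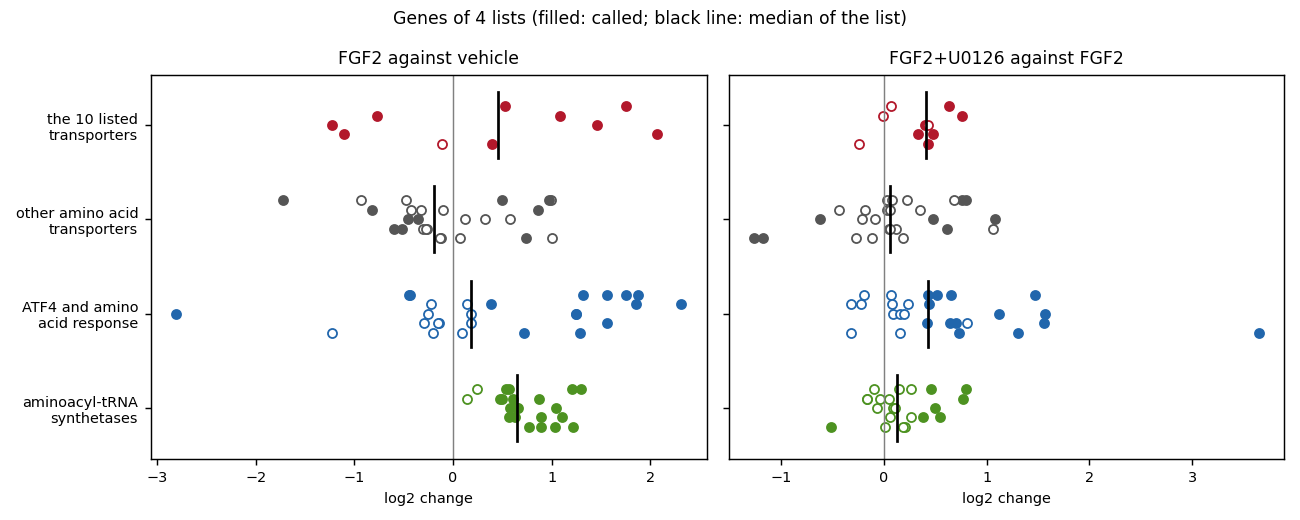
Log2 change (x axis) of the tested genes of 4 lists, in FGF2 against vehicle and in FGF2 with U0126 against FGF2. The lists are the 10 transporters, 26 other amino acid transporters, 26 genes of the ATF4 and amino acid response and 22 of the aminoacyl-tRNA synthetase list. The last also holds genes that are not synthetases. Each point is a gene, filled where called, spread vertically for legibility, and the black line is the median of the list. The genes of the synthetase list have a median of 0.65 with FGF2, while the transporters spread from -1.23 to 2.07.

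The genes whose normalized log2 values followed those of Slc7a5 most closely over the 8 arrays were Aldh18a1, an enzyme of proline synthesis (Pearson r = 0.999), Asns (0.998), Pno1 and Emg1, both of ribosome assembly (0.998 and 0.995), and Nars (0.994). These are descriptions, since the arrays form 4 groups and share 1 normalization, and Aldh18a1, Asns and Nars are also on the lists above. Aldh18a1 had 1032 and 958 with FGF2 and U0126, 695 and 683 with FGF2 and SB202190, 762 and 723 with FGF2, and 257 and 243 with vehicle, the same order of groups as Slc7a5.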

How the data were processed

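Total RNA of 8 mouse samples was measured on Affymetrix arrays, 1 per sample. The deposited table gives, for each of 45101 probe sets, an intensity on a linear scale. How the authors computed it from the scans is not given in the sources used here. After trimming 2% at each end, the mean signal of every array was 150.001, so the deposited intensities had been scaled to a common mean. The table was used without detection calls, and the number of arrays limits the precision.

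Probe sets were named from the platform annotation (34958 with 1 symbol, 932 with several, which name none here, and 9211 with none). The signals, after adding their 10th percentile of 1.77, were log2-transformed, which understates the change of low signals, and arrays were brought to equal quantiles. The probe set of highest mean stood for a gene, and genes under the 40th percentile of probe-set means (log2 of 3.83) were left out, which kept 13173 of 18194 genes. Vim, the brightest gene on every array, has no spread after this normalization and was left out. limma 3.58.1 in R 4.3.3 fitted all 8 arrays together with an intensity trend (4 residual and 9.20 median prior degrees of freedom), two-sided, with Benjamini-Hochberg adjustment within each of 6 comparisons. A second fit tested 27060 probe sets singly.

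Replicate numbers are not said to pair the samples. Deviations of arrays with the same number correlated at -0.026 to 0.034 between groups, so no shared replicate effect was seen. With 2 arrays a group this cannot tell whether samples were handled in pairs, so the replicate block was run as an alternative. The members, gene lists and motifs were chosen with earlier results of these data known. Named list genes are the called ones with the smallest p, up to 4 per list and comparison, of which the text gives a part. Simulated data with 13173 genes, in which 50 genes were made to differ at each fold, were tested as FGF2 against vehicle. Of these, 60% were called in the right direction at 1.5-fold, 84% at 2-fold, 90% at 3-fold and 84% at 4-fold. In the wrong direction 0 were called, and 11 unchanged genes were called as well. The real comparison called 2491 genes higher and 2504 lower, so the adjustment differs there and these shares do not give its power. Alternatives varied the normalization, pseudocount, filter, variance prior, array weights, arrays in the fit, probe sets, threshold and replicate block, and left out each array. A value that was not called was given no direction when alternatives were compared. Figures were drawn with matplotlib 3.10.9 in Python 3.11.15.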

Additional observations from a re-analysis of the deposited data

How the results depend on the processing

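Over 22 alternatives, 8 of them leaving out an array, 1257 of 1314 transporter values kept their call or stayed uncalled, whatever the sign of an uncalled value. Another 51 lost a call and kept their sign, 3 gained a call, and 3 reversed in sign and lost their call as well. Of the 43 calls over the 6 comparisons 26 were never lost. The gained calls were those of Slc7a6 against vehicle, averaged over its probe sets in both inhibitor groups and with median centring in FGF2 with SB202190. The reversed values all came from averaging the probe sets of a gene: Slc1a5 had -0.23 in FGF2 against vehicle (adjusted p = 0.705) and -0.0135 in FGF2 with SB202190 against vehicle (adjusted p = 0.983), and Slc38a2 had -0.0847 in FGF2 with U0126 against FGF2 (adjusted p = 0.795). Over all alternatives the adjusted p of these 3 ranged upward from 1.01e-04, 8.04e-04 and 0.00979 to those values. It ranged from 0.00426 to 0.258 for Slc7a6 in FGF2 against vehicle and, in FGF2 with U0126 against FGF2, from 0.00186 to 0.412 for Slc7a1 and 0.00247 to 0.125 for Slc1a5. In FGF2 with SB202190 against FGF2 it ranged from 0.00945 to 0.293 for Slc7a2, 0.0248 to 0.561 for Slc38a2 and 0.0198 to 0.287 for Slc3a2, and against vehicle from 1.33e-04 to 0.284 for Slc3a2 and 1.66e-04 to 0.0540 for Slc1a4. Averaging includes dim probe sets. It also left 3 transporters called in FGF2 with U0126 against FGF2, 3 in FGF2 with U0126 against FGF2 with SB202190 and 0 in FGF2 with SB202190 against FGF2. Without the intensity trend the 6 calls in FGF2 with U0126 against FGF2 became 4, where the 2925 over all genes became 1620. In FGF2 with SB202190 against FGF2, the 3 calls became 1 with median centring, 1 with no filter, 0 without the intensity trend and 0 at adjusted p under 0.01, and the cause was not tested. Leaving out an array gave 0 to 3 there, and 3 to 6 in FGF2 with U0126 against FGF2 (3 without FGF2 with U0126 replicate 1). With the replicate number as a block, the counts of called transporters were 9 for FGF2 against vehicle, 6 for FGF2 with U0126 against FGF2, 3 for FGF2 with SB202190 against FGF2, 9 and 9 for FGF2 with U0126 and FGF2 with SB202190 against vehicle, 7 between the inhibitors, and 17 probe sets, the same as without it.

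Over all genes, median centring moved the median change to 0.16 in FGF2 against vehicle, 0.19 in FGF2 with U0126 against vehicle and 0.18 in FGF2 with SB202190 against vehicle, and the share of calls that were higher to 73.1%, 79.9% and 73.9%, against 49.9%, 52.5% and 50.3% with quantiles. The called transporters then had the same counts of 6 higher and 3 lower in the first and second of these, and 6 and 3, against 5 and 4, in the third. In FGF2 with SB202190 against FGF2, the 404 genes called became 235 with median centring, 170 with the mean of probe sets, 116 at adjusted p under 0.01, 84 and 87 without FGF2 replicate 1 and 2, and 99 without FGF2 with SB202190 replicate 2. In FGF2 with U0126 against FGF2, the 2925 became 1620 without the intensity trend, 1782 with the mean of probe sets, 1637 at 0.01, and 1855 and 1795 without FGF2 replicate 1 and 2. Between the inhibitors 2996 became 1728, 1783 and 1706 under the same 3 settings, and 1812 without FGF2 with SB202190 replicate 2. At 0.01, 4181 became 2725 in FGF2 with U0126 against vehicle, and 8243 probe sets became 5453 in FGF2 against vehicle. Signal limits the dim probe sets, such as the 2 below the filter.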
